A study of Mus musculus with 8 samples.

Results

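Monocytes and early, C1q-low macrophages were 1018 of the 53528 cells in tumours grown from Hepa1-6, a mouse hepatoma (liver cancer) cell line. They were chosen by the deposited values of marker genes. A member had a mean of at least 1.2 over Lyz2, Ccr2 and Ms4a6c, below 0.5 over the complement genes C1qa, C1qb and C1qc, below 1 over the neutrophil genes S100a8, S100a9 and Csf3r, and below 0.5 over the T-cell genes Cd3g and Trbc2. Its values of the dendritic-cell genes Cd209a and Flt3 were each below 0.5. The cells used for comparison, C1q macrophages, had a mean of at least 1.5 over the C1q genes under the same T-cell limit, and numbered 3905.

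Single cells of the dissociated tumours were sequenced in droplets, from the 3′ ends of their RNA. The labels give 4 groups: unedited tumours under intraperitoneal PBS, unedited tumours under intraperitoneal PD-1 antibody, Soat1-edited tumours under PBS and Soat1-edited tumours under the antibody, where Soat1 encodes a cholesterol-esterifying enzyme and PD-1 is a checkpoint receptor of T cells. Soat1 editing is named knockout in the titles of the entries and knockdown under genotype, and the strain and age of the animals are not given in the sources used here. Each group has a cDNA and an oligo entry, counted as 1 sample. The cells of the pooled table fall into 6 sets by the last number of their names, and nothing ties the sets to the groups, so no genotype or treatment was compared and no p-value was computed. What this number stands for is not given in the sources used here, so the sets are not taken as samples of the study and values are given set by set. The names hold no barcode sequence, so barcodes shared between sets could not be counted.

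Classical monocytes leave the bone marrow, enter inflamed or tumour tissue through the chemokine receptor Ccr2 and carry the surface protein Ly6C. Within tissue they lose monocyte genes such as Ly6c2 and take up macrophage genes, among them those of the complement component C1q, the receptors Mertk and Mrc1 and lysosomal proteases. Non-classical monocytes patrol vessel walls and carry little Ly6C. In tumours, monocyte-derived cells are known as a source of interleukin 1, chemokines and proteases, and as cells that can present antigen or restrain T cells.

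Depth was known for set 1, whose values are the natural log of 1 plus UMIs (counted RNA molecules) per 10000 UMIs of the cell, so that the UMIs behind each value could be recovered. Its 9370 cells ranged from 1001 to 261833 UMIs (median 11098.5). The 100 members in set 1 held 320508 UMIs, with a median of 2603 per cell and a range from 1014 to 15067. The 623 C1q macrophages left after 9 called doublets held 2437509 UMIs, with a median of 2727. Every cell of sets 2 to 6 has values below 0, so these were changed further by a step not given in the sources used here, and their values are compared as deposited, not as expression. Levels in set 1 are given as CPM, UMIs per 1000000 UMIs of the class, with intervals at the 95% level that cover counting error only. They say nothing of the spread between tumours.

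Of all cells, 3017 met the Lyz2, Ccr2 and Ms4a6c limit. The C1q limit then removed 1691 of them, the neutrophil limit 50, the T-cell limit 166 and the dendritic-cell limit 92. The mean of Lyz2, Ccr2 and Ms4a6c ran from 1.2 to 4.02 among the members, with a median of 2.15, without a gap at the limit. The 48 members with a mean from 1.2 to below 1.3 had a mean Lyz2 value of 1.60 and a mean Il1b value of 2.45. The 52 cells just under the limit, from 1.1 to below 1.2, had 1.23 and 2.01. At the C1q limit, the 37 members from 0.4 to below 0.5 had a mean Lyz2 value of 3.16, and the 41 cells from 0.5 to below 0.6 had 2.81. By its construction the class is a range of these scores, and whether its cells form a separate type was not tested.

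Members made up 1.90% of all cells (95% Clopper-Pearson interval 1.79 to 2.02). The intervals of these shares cover counting error only and say nothing of the spread between sets or tumours. In sets 1 to 6 they were 1.07% (100 cells), 1.81% (137), 0.931% (110), 3.99% (311), 1.32% (107) and 2.86% (253) of the cells. Set 4 had the highest share, with an interval from 3.57 to 4.45, and set 3 the lowest, with an interval from 0.766 to 1.12. The highest share was 4.28 times the lowest, while that of C1q macrophages, from 6.13% to 9.84%, was 1.60 times. Since the values of sets 2 to 6 were changed further, the same limits may not admit like cells in each set. A C1q mean of 0 or below was found in 95, 24, 63, 141, 9 and 55 members of sets 1 to 6. The part of that step in the shares was not tested. Members as a share of members plus C1q macrophages were 13.7%, 22.6%, 11.4%, 28.9%, 17.7% and 26.9% in sets 1 to 6, and 20.7% (19.6 to 21.8) over all sets. With both classes limited to cells whose mean of the hepatoma genes was below 0.5, members were 1.13% of all cells and 35.1% of both classes. This limit left 602 of the 1018 members and removed a larger part of the macrophages, so 35.1% is not a corrected share. Sets 4 and 6, with the highest member shares, also had the highest shares of cells with a mean of Cd3g and Trbc2 at or above 0.5, at 40.2% and 42.6%, against 16.5% to 26.7% in the other sets. Per 100 such T-marker cells the sets held 6.48, 6.79, 3.89, 9.91, 5.66 and 6.70 members. The part of the T-marker cells in the member shares was not tested.

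**Figure D1:**
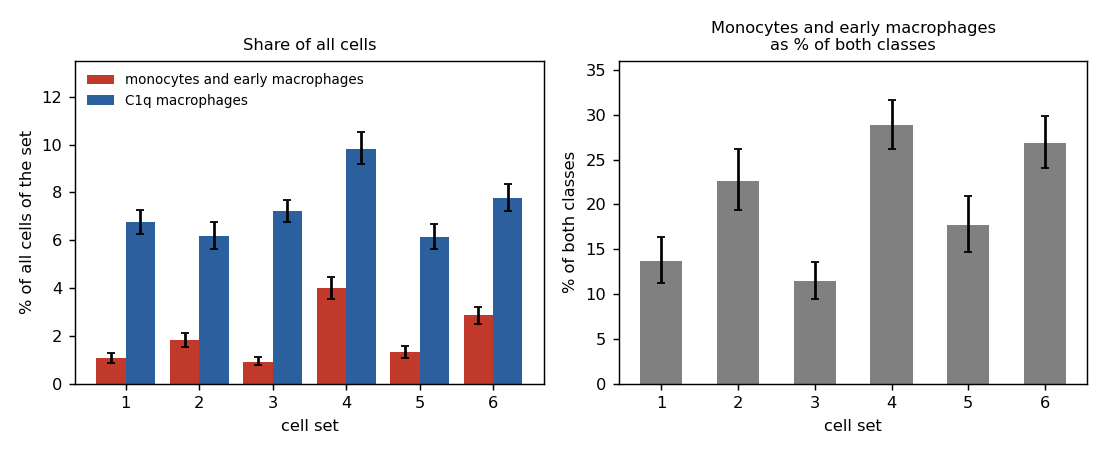
Left, members and C1q macrophages as a percentage of the cells of each set (bars) with exact 95% binomial intervals (lines). Right, members as a percentage of both classes. Set 4 has the highest member share, 3.99%, and set 3 the lowest, 0.931%.

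The share of set 6 rests in large part on a sub-cluster of 116 members, described below, of which 113 lie in set 6. Without these 116 cells set 6 had 1.58% members in place of 2.86%. The lowest and highest shares of the 6 sets, 0.931% and 3.99%, were the same.

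The genes of the rule describe the choice of cells. Lyz2, the lysozyme of myeloid cells, had mean deposited values of 2.87, 3.27, 2.75, 2.88, 2.97 and 2.75 in the members of sets 1 to 6, against 1.19 to 1.3 in C1q macrophages. Ccr2 had 1.70, 1.68, 1.63, 1.57, 1.91 and 1.54, against 0.271 to 0.384. Ms4a6c, a membrane protein of myeloid cells, had 2.10, 2.28, 2.15, 2.15, 2.02 and 2.14, against 0.967 to 1.09. For each of these genes the member means of all 6 sets lay above the macrophage means of all 6. Not every member carried all 3: values above 0.5 were found in 92.5% of members for Lyz2, 88.6% for Ms4a6c and 71.9% for Ccr2.

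Il1b, the cytokine interleukin 1 beta, and the chemokine gene Ccl6 were named as markers of these cells but not used to choose them. Il1b had member means of 2.79, 2.55, 2.67, 2.57, 2.57 and 2.95 in sets 1 to 6, against 0.963 to 1.16 in C1q macrophages, and the set means of the classes did not overlap. In set 1 it stood at 3114 CPM in members (2924 to 3313) and 728 in macrophages (695 to 763), a ratio of 4.28 (3.95 to 4.62). Ccl6 did not separate the classes in this way. Its member means were 1.71, 1.69, 1.52, 1.31, 1.65 and 1.28, and its macrophage means 1.08, 1.28, 0.906, 1.25, 0.954 and 1.32. Members were thus higher for Ccl6 in 5 sets, and in set 6 they lay 0.040 below the macrophages. Within set 6, the 113 members of a sub-cluster described below had a Ccl6 mean of 0.789, and the other members had 1.67, above the macrophages. In set 1 its ratio was 1.88 (1.68 to 2.09).

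**Figure D2:**
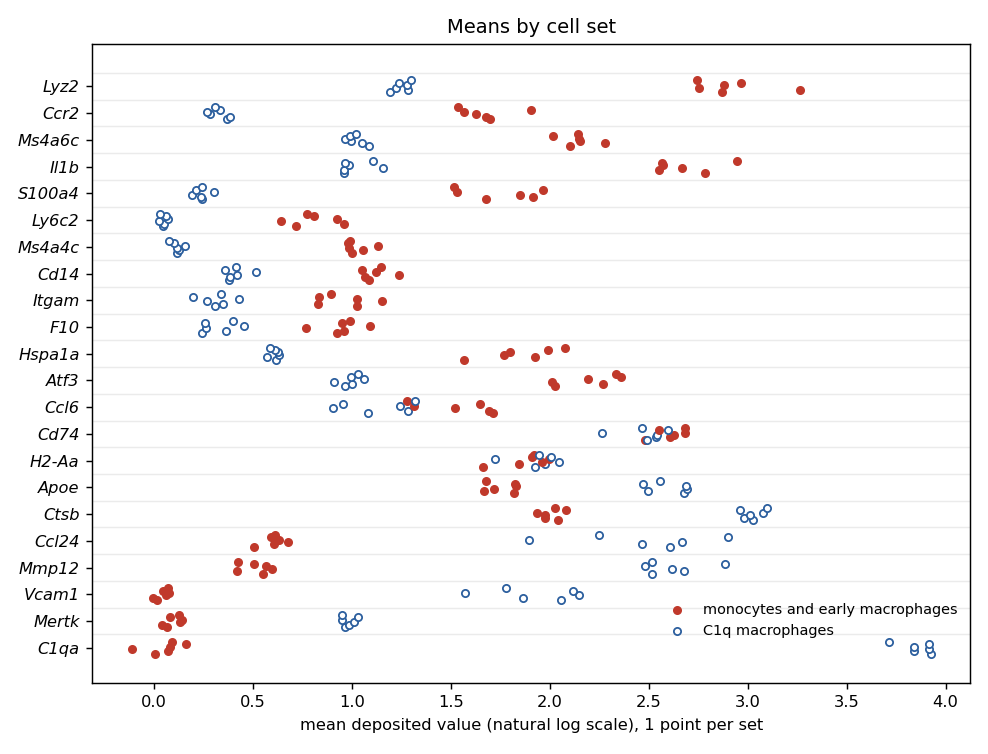
Mean deposited value (natural log scale, horizontal) of 22 genes in members (filled) and C1q macrophages (open), 1 point for each of the 6 sets. For Lyz2, Ccr2 and Il1b the points of the classes do not overlap, while those of Ccl6, Cd74 and H2-Aa do.

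Of the 979 genes with at least 20 UMIs over both classes in set 1, 143 were more than 2-fold higher in members (14.6% of genes tested) and 317 more than 2-fold lower (32.4%), or 47% in either direction. The classes were chosen on the C1q and monocyte genes, so these shares are the background for the counts below and carry no finding. The median log2 ratio over the 979 genes was -0.45. Of the 317 lower genes, 52 had 0 UMIs in members, and 281 were still past 2-fold with such zeros set to 3 UMIs over the class. On the deposited values, 250 of 2000 genes (12.5%) had a higher mean in members of all 6 sets and 542 (27.1%) a lower mean.

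Classical monocyte genes stood higher in members. Of 13 such genes past 20 UMIs and outside the rule, 11 were more than 2-fold higher and 0 lower, with a median log2 ratio of 3.12. Of the 14 in the table, 12 had a higher mean in all 6 sets. Ly6c2, which encodes the Ly6C protein, had 108 UMIs in members and 49 in macrophages, or 337 CPM (276 to 407) against 20.1 (14.9 to 26.6), a ratio of 16.8 (11.9 to 24.0). Its member means were 0.718, 0.961, 0.644, 0.926, 0.809 and 0.772 in sets 1 to 6 and its macrophage means 0.025 to 0.072, so the set means of the classes did not overlap.

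S100a4, a calcium-binding protein of motile cells, stood at 861 CPM in members and 122 in macrophages, a ratio of 7.07 (5.98 to 8.35). Its member means were 1.68, 1.92, 1.85, 1.53, 1.97 and 1.52, against 0.194 to 0.306. The chitinase-like gene Chil3 had a ratio of 19.8 (9.23 to 45.9), the matrix proteoglycan gene Vcan 17.8 (8.74 to 38.3), and Hp, which encodes haptoglobin, 5.28 (3.61 to 7.68). Fn1 and F13a1, the fibronectin and coagulation factor XIII genes, did not pass 2-fold, with ratios of 1.66 (1.46 to 1.87) and 1.54 (1.19 to 1.97). Ly6c1 had 0 UMIs in members and 7 in macrophages, under the floor of 20 UMIs. With 320508 UMIs in all in members and 2437509 in macrophages, no difference can be read from these counts. Reads of near-identical neighbours such as Ly6c1, Ly6c2 and Ly6i may be split by the counting, so their single values are uncertain.

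After each cell was thinned to 1000 UMIs, 20% of members (12.7 to 29.2) and 1.28% of macrophages (0.556 to 2.51) had a Ly6c2 UMI, against 35% and 2.89% unthinned. Of 542 hepatoma-marker cells, which should lack the gene and had a median of 22416 UMIs, 0 had one after thinning, which allows a share of up to 0.554%. S100a4 was found in 52.0% of thinned members (41.8 to 62.1), 6.90% of macrophages and 0.553% of hepatoma-marker cells, against 68.0%, 13.2% and 13.3% unthinned. Ly6c2 was therefore seen in a minority of members at this depth, and S100a4 in more.

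Non-classical monocyte genes did not move together. Of 6 past 20 UMIs, Ace and Spn were more than 2-fold higher in members, Cx3cr1 was lower and 3 passed neither. Ace, which encodes angiotensin-converting enzyme, had 23 UMIs in 18 members and 0 in the macrophages, which puts it at least 58.3-fold higher when the macrophages as a class are given the floor of 3 UMIs. Spn, which encodes CD43, had 14 UMIs against 19, a ratio of 5.60 (2.60 to 11.8). Cx3cr1, the fractalkine receptor, stood at 40.6 CPM in members and 143 in macrophages, and its member means, from 0.161 to 0.337, were below the macrophage mean of the same set in all 6, though the ranges met (0.305 to 0.474 in macrophages).

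Among inflammatory cytokines and their regulators, 8 of 12 genes were more than 2-fold higher in members and 1, Cxcl1, with 8 UMIs in members, was lower, with a median log2 ratio of 1.47. Il1rn, the interleukin 1 receptor antagonist, had a ratio of 3.01 (2.54 to 3.55) and higher means in all 6 sets. Osm, the cytokine oncostatin M, had a ratio of 2.82 (2.40 to 3.31), with member means of 1.31, 1.03, 1.06, 1.27, 1.13 and 1.23 against 0.525 to 0.693. Nlrp3, the inflammasome sensor, had 2.37 (1.55 to 3.53). Cxcl2, a chemokine that draws neutrophils, stood at 2140 CPM against 784. Its member means were 1.65, 1.09, 1.45, 1.55, 1.34 and 1.38, the widest range over the sets among all 2000 genes, and set 2 overlapped the macrophages, at 0.977 to 1.25.

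Some of these counts came from few cells. Il6 had 30 UMIs in members, of which 27 (90%) lay in 1 cell, so its ratio of 10.9 rests on 1 cell. Cxcl3 had a ratio of 8.42, with 85.2% of its 216 UMIs in 5 cells, and a higher member mean in 3 of 6 sets. On the deposited values the median difference over the inflammatory list ran from -0.01 in set 5 to 0.19 in set 1. It was below 0 in sets 4 and 5, where the direction of the set 1 median was therefore not seen.

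CC and CXC chemokines were divided. Ccl3, Ccl5 and Ccl9 were more than 2-fold higher in members, 5 of 14 genes were lower and 6 passed neither, with a median log2 ratio of 0.12. The lower genes were Ccl7, Ccl8, Ccl12, Ccl17 and Ccl24. The call for Ccl5 rests on 33 UMIs in 9 members, with 84.8% of them in 5 cells, and its log2 ratio of 1.42 was 0.72 after thinning each cell to 1000 UMIs, below 2-fold. That for Ccl17 rests on 1 UMI in members against 21, a ratio of 0.362 (0.00876 to 2.25), and its mean was higher in members in 4 of 6 sets. Ccl8, which attracts monocytes and T cells, had 0 UMIs in members and 1690 in macrophages, at least 74.1-fold lower with the members as a class given the same floor. Ccl24, an eosinophil-attracting chemokine, stood at 431 CPM (362 to 509) against 3235 (3164 to 3307). Its member means were 0.508, 0.608, 0.678, 0.634, 0.593 and 0.613 and its macrophage means 1.90 to 2.90, without overlap. Cxcl9, an interferon-induced attractant of T cells, had a ratio of 0.742 (0.637 to 0.861) and lower member means in all 6 sets. In set 1, 79.2% of its 192 member UMIs lay in 5 cells.

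Receptors for chemokines and adhesion were mostly higher: 5 of 8 tested were past 2-fold, among them Ccrl2, Itgam and Itga4, while Cx3cr1 and Vcam1 were lower and Ccr1 passed neither. Itgam, the integrin chain CD11b, had a ratio of 4.51 (3.61 to 5.63), with member means of 0.828 to 1.15 against 0.196 to 0.430. Vcam1, an adhesion molecule, had 2 UMIs in members and 4164 in macrophages, so it was 274-fold lower with a counting interval from 75.7 to 2261.

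**Figure D3:**
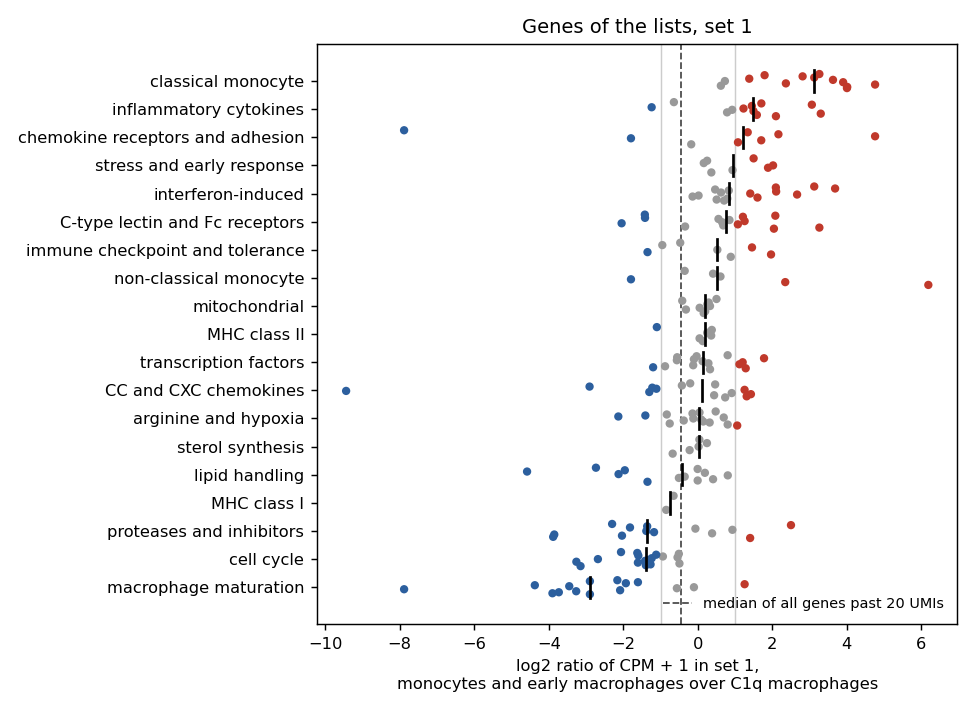
Log2 ratio of CPM + 1 in set 1, members over C1q macrophages, for each gene of 19 lists with at least 20 UMIs. Points past 2-fold are coloured, black bars are list medians and the dashed line is the median of all 979 genes. Classical monocyte genes have a median of 3.12 and macrophage maturation genes one of -2.90.

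Genes of macrophage maturation stood lower. Of 15 outside the rule, 12 were more than 2-fold lower in members and 1, the Fc receptor gene Fcgr1, was higher. Their median log2 ratio was -2.90, or -2.09 with genes at 0 UMIs set to 3. Mertk, a receptor for the uptake of dead cells, had 5 UMIs in members against 837, or 15.6 CPM (5.07 to 36.4) against 343 (321 to 367). Its member means were 0.068, 0.040, 0.133, 0.145, 0.083 and 0.130, and its macrophage means 0.950 to 1.03. Mrc1, the mannose receptor, had 62.4 CPM against 471. Ms4a7 was 14.1-fold and Cd72 11.6-fold lower. The transcription factor gene Maf passed neither limit, with a ratio of 0.676 (0.523 to 0.862).

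Proteases and their inhibitors followed in part, with 8 of 13 lower, 2 higher and 3 neither, and a median log2 ratio of -1.36. The macrophage elastase gene Mmp12 stood at 955 CPM in members and 3918 in macrophages, and the collagenase gene Mmp13 was 14.6-fold lower. Of the 306 Mmp12 UMIs in members, 77.5% lay in 5 cells. Ctsb, which encodes cathepsin B, had a ratio of 0.383 (0.342 to 0.428), with member means of 1.94 to 2.08 against 2.96 to 3.10. F10, the coagulation factor X gene, was higher, with a ratio of 5.73 (4.43 to 7.39) and higher means in all 6 sets.

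Lipid-handling genes had 0 of 12 higher and 5 lower, with a median log2 ratio of -0.43, beside -0.45 for all genes. The list median was -0.93 after thinning and -0.97 with both classes limited to a hepatoma mean below 0.5. Apoe, the apolipoprotein E gene, stood at 855 CPM (757 to 962) against 2183 (2125 to 2243), and its member means of 1.67 to 1.83 lay below the macrophage means of 2.47 to 2.69. Hepatoma-marker cells also carry Apoe, with a UMI in 97.4% of them after thinning. Spp1, the osteopontin gene, and Msr1, a scavenger receptor, had ratios of 1.14 (0.904 to 1.42) and 0.996 (0.797 to 1.23). Of 5 sterol synthesis genes, which include Hmgcs1 and Sqle, 0 passed 2-fold in either direction, with a median of 0.02.

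MHC class II genes, which present antigen to CD4 T cells, had 5 of 6 within 2-fold, and H2-DMb2 was lower. The median log2 ratio was 0.19 over summed UMIs, 0.00 as a mean over cells and -0.09 after thinning to 1000 UMIs, so its direction depended on the measure. Cd74, the invariant chain, had a ratio of 1.19 (1.11 to 1.28), and 65.0% of thinned members against 70.3% of macrophages had a UMI. H2-Ab1 had a ratio of 1.03 (0.952 to 1.12) but lower member means in all 6 sets, at 1.90, 1.99, 1.99, 2.19, 2.16 and 2.01 against 2.24 to 2.54. MHC class I was measured by H2-K1 and H2-Q7, neither past 2-fold, with ratios of 0.555 (0.514 to 0.598) and 0.634 (0.415 to 0.933). H2 genes resemble each other closely, so reads may be split between them.

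Interferon-induced genes were higher in 7 of 15 and lower in 0, with a median log2 ratio of 0.83, and 12 of 16 had a higher mean in members of all 6 sets. Ifi205, a DNA-sensor family gene, had a ratio of 6.46 (4.82 to 8.63), and the guanylate-binding protein gene Gbp2 4.31 (3.66 to 5.07). Gbp2 means were 1.00, 1.14, 1.29, 1.12, 1.02 and 1.12 in members and 0.451 to 0.568 in macrophages. Isg15, a ubiquitin-like protein, had a ratio of 1.63 (1.38 to 1.92), which did not pass 2-fold. Ifi204, Ifi205 and Ifi207 are close copies of one another, which makes their single values uncertain.

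C-type lectins and Fc receptors had 6 of 14 higher, 3 lower and 5 neither. Cd14, the co-receptor for lipopolysaccharide, had a ratio of 4.25 (3.52 to 5.11), with member means of 1.05 to 1.24 against 0.361 to 0.516. The lectin gene Clec4e, a sensor of dead cells and mycobacteria, had 10.5 (6.00 to 18.5). Fcgr4, an activating IgG receptor, was lower, at 203 CPM against 544, with a log2 ratio of -1.42 that was -0.95 after thinning, just short of 2-fold. Clec10a and Mgl2 were also lower, with ratios of 0.238 and 0.369.

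Among transcription factors, Klf4, Irf5, Nr4a3 and Atf3 were past 2-fold higher of 15, and Cebpa was lower. The calls for Nr4a3 and Cebpa did not hold under each measure. Nr4a3, with 21 UMIs in members, 81.0% of them in 5 cells, had a ratio of 2.35 (1.37 to 3.88), and 1.70 as a mean over cells. Cebpa, with 10 UMIs in members, had a ratio of 0.427 (0.201 to 0.804), and 0.547 as a mean over cells. Atf3, an early stress-response factor, had a ratio of 3.43 (3.06 to 3.85), with member means of 2.03, 2.27, 2.01, 2.20, 2.36 and 2.34 against 0.913 to 1.06. Klf4, which takes part in monocyte differentiation, had 2.44 (2.09 to 2.83). The heat-shock genes Hspa1a and Hspa1b, near-identical copies whose reads may be shared, had ratios of 3.70 (3.27 to 4.18) and 4.06 (3.54 to 4.65). Hspa1a means ran from 1.57 in set 1 to 2.08 in set 6 for members and from 0.570 to 0.632 for macrophages. These genes are also known to respond to tissue dissociation, whose part was not tested.

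Of the 7 genes tested in a list named immune checkpoint and tolerance, Lilr4b and Havcr2, which encodes TIM-3, were past 2-fold higher. Il10 was lower by summed UMIs. The Il10 call rests on 3 UMIs in 2 members. Its log2 ratio of -1.35 was -0.43 after thinning and -0.17 as a mean over cells, neither past 2-fold. Lilr4b, an immunoglobulin-like receptor gene of leukocytes, had a ratio of 3.92 (3.31 to 4.62). Cd274, which encodes the PD-1 ligand PD-L1, had 1.85 (1.44 to 2.36), with member means of 0.742, 0.795, 0.846, 0.874, 0.758 and 0.900 against 0.444 to 0.574. It thus lay below 2-fold in set 1 with no overlap of the class means over the sets.

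Arginine and hypoxia genes had 1 of 15 higher, 2 lower and 12 neither. The higher gene was Arg1, arginase 1, with 674 CPM against 324 and a ratio of 2.08 (1.78 to 2.42), and the measures of it differed. Its 216 UMIs lay in 16 members, and 68.1% of them in 5 cells. After thinning, 14.0% of members (7.87 to 22.4) and 18.0% of macrophages (15 to 21.2) had a UMI. Its member means, 0.554, 0.111, 0.335, 0.458, 0.249 and 0.227, were below the macrophage means in all 6 sets. Hmox1, heme oxygenase 1, was lower, with a ratio of 0.376 (0.309 to 0.453).

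Cell-cycle genes had 0 of 17 higher and 13 lower, with a median log2 ratio of -1.40. Several calls rest on few UMIs in members, such as Ccnb2 with 1, Tk1 with 2 and Ccnb1 with 4. The log2 ratio of Ccnb1, -1.33, was 0.22 after thinning, and that of Top2a, -1.40, was -0.99. The other lower genes stayed past 2-fold after thinning. Birc5, a mitotic gene, had 7 UMIs against 531, and Mki67 2 against 154. Of 9 mitochondrial genes, 0 passed 2-fold, with a median of 0.20.

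By a rule of size, the genes with the highest ratios and the same sign in every set also included Mcemp1 (20.3), Ifitm6 (16.3), Slfn4 (16.1), Ly6i (15.5), Napsa (11.8), Itgb7 (10.4), Ltb4r1 (9.81), Ms4a4c (8.93) and Gm42674 (8.60). The lowest included Retnla, Igf1, Clec1b, Adamdec1, Atp6v0d2, Mgll, Cep55 and Ednrb, each at 0 UMIs in members and at least 3.38-fold lower with the floor of 3 UMIs over the class. For the resistin-like gene Retnla the bound was 43.0-fold, and for the growth factor gene Igf1 10.9-fold. Slc40a1, the iron exporter, had 1 UMI against 323 and H2-M2 2 against 567. Against all other cells of set 1, the highest genes were Lyz2, Ly6i, Ms4a6c, Ccr2, Ms4a4c, Il1b, Alox5ap, Itgam, Tyrobp and Clec4a3. Of these, Lyz2, Ms4a6c and Ccr2 chose the members, so their place follows from the rule and carries no finding.

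Markers of other cells differed in level between the lists in the members of set 1, and several were at 0. Among them Cd3g, Trbc2, S100a8, S100a9, Csf3r, Cd209a and Flt3 are genes of the rule. Their counts in members were limited by the choice of cells and carry no finding. Csf3r was not low, with 35 UMIs in 27 members, and was among the genes more than 2-fold higher in members. It enters the neutrophil sum below. C1q macrophages shared only the T-cell limit. The 12 hepatoma genes summed to 2259 CPM in members, 3326 in C1q macrophages and 30989 in hepatoma-marker cells, and 1 of them, Serpina1c, was at 0 in members. The 9 T-cell genes summed to 31.2 CPM, with Cd3g, Trbc2 and Cd4 at 0, against 58.7 in macrophages. The 10 neutrophil genes summed to 296 against 124 CPM, with Retnlg and Stfa2l1 at 0. In members, the means of the neutrophil list ran from 0.071 to 0.113 over the sets, against 0.047 to 0.057 in macrophages. Type 2 dendritic-cell genes summed to 284 against 771 CPM, with Cd209a and Flt3 at 0, and type 1 dendritic-cell genes to 555 against 375, with Xcr1, Clec9a and Gcsam at 0. Ifi205 and Irf8 of the type 1 list are also genes of monocytes, and 60% of members and 56.5% of macrophages had a UMI of that list. The 4 endothelial genes in the table summed to 106 CPM in members and 22.97 in macrophages, with Cdh5 and Plvap at 0 in members, and 17% against 5.30% of cells had a UMI. Over the sets their mean ran from 0.068 to 0.082 in members and from 0.017 to 0.043 in macrophages. Of their UMIs in members 31 were of Flt1, a receptor for vascular growth factors, and 3 of Kdr. The part of any of these in the ratios above was not tested. With members and macrophages limited to a hepatoma mean below 0.5, 79 genes were higher and 132 lower of 542 tested, beside 979 tested without this limit. Cells under the limit can still hold hepatoma UMIs, and fewer genes reach the floor, so these counts cannot give the part of the hepatoma genes.

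Between the members and C1q macrophages lay 276 cells with a C1q mean from 0.5 to below 1.5 and the other limits of the rule. Like the members, they had to pass the Lyz2, Ccr2 and Ms4a6c limit and the neutrophil and dendritic-cell limits. C1q macrophages did not have to, and the part of these unlike limits in the orders below was not tested. For these intermediate cells the mean Ly6c2 value was 0.531, against 0.829 in members and 0.047 in macrophages, and in all 6 sets they lay between the classes. S100a4 (1.68, 1.32 and 0.240 in members, intermediate cells and macrophages), F10 (0.983, 0.621 and 0.333) and Hspa1a (1.88, 1.60 and 0.610) had the same order in all 6 sets. The macrophage genes Mmp12 (0.507, 1.1 and 2.60), Vcam1 (0.055, 0.269 and 1.92) and Mertk (0.112, 0.319 and 0.982) had the opposite order in all 6.

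Ctsb, at 2.04 in the intermediate cells, was nearer to the 1.99 of members than to 3.03. Cd74 and H2-Aa did not lie between the classes. Cd74 was 2.63, 2.95 and 2.47, and H2-Aa 1.91, 2.41 and 1.93, with the intermediate cells above both classes in all 6 sets. H2-Ab1, at 2.66 in the intermediate cells, was above the members in all 6 sets and above the macrophages in 5. Set 1 holds 24 of the intermediate cells, so no CPM is compared.

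**Figure D4:**
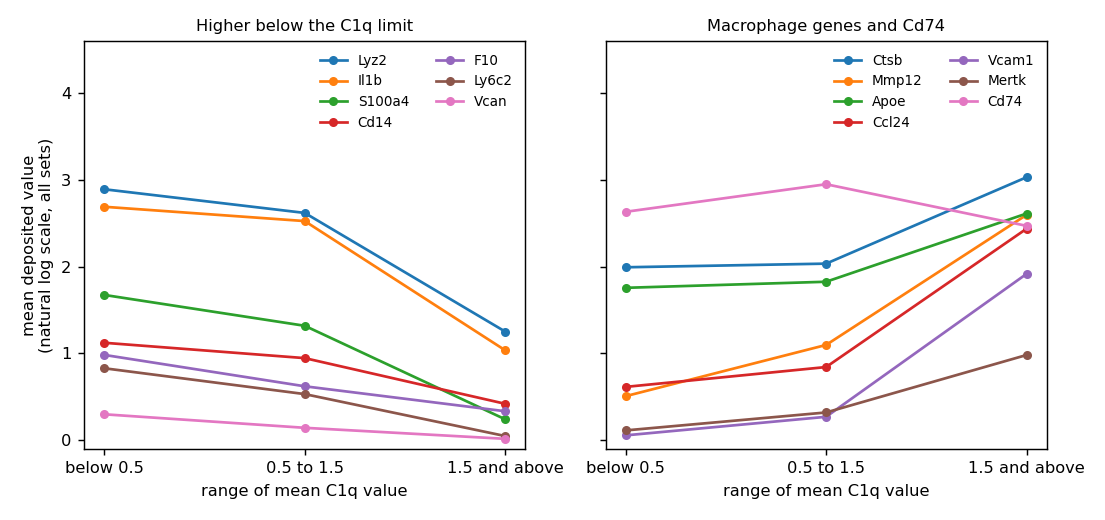
Mean deposited value over all sets (natural log scale) in members, in the 276 intermediate cells and in C1q macrophages, ordered by the mean of C1qa, C1qb and C1qc. Ly6c2 goes from 0.829 to 0.047 and Vcam1 from 0.055 to 1.92, while Cd74 is highest, 2.95, in the middle range. Lyz2 is a gene of the rule, which the members and intermediate cells had to pass.

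The members were not uniform. Clustered on all genes outside the rule, they fell into 6 sub-clusters, which are described by their leading genes and not tested, since the same genes made them. Sub-cluster 1 (277 cells) was led by the antigen-presentation genes H2-Ab1, H2-Aa, H2-Eb1 and Cd74 and by Cxcl9. Its mean H2-Aa value was 2.81, against 1.57 in the other members. Sub-cluster 2 (230 cells) was led by Cxcl2, Basp1, Hmox1, Lgmn and Arg1. It held a mean Arg1 value of 1.18, against 0.080 in the other members, and in set 1 its 27 cells held 210 of the 216 Arg1 UMIs, 204 of the 216 Cxcl3 UMIs and 29 of the 30 Il6 UMIs, 27 of which lay in 1 cell. Over all sets the mean Il6 value was highest in sub-cluster 6, at 0.963, against 0.094 in sub-cluster 2. The hypoxia-induced genes Hilpda and Ero1l were also among the 10 leading genes of sub-cluster 2.

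Sub-cluster 3 (208 cells) was led by S100a4, Ly6c2, Crip1, Ccl6 and Ifitm3. It had the highest Lyz2, Chil3 and Vcan means of the 6 sub-clusters, at 4.14, 0.853 and 0.805. Sub-cluster 4 (163 cells) was led by Klf2, Spn, Cytip, Samsn1 and Klf4, with the highest mean of Ace, 0.40, beside 0.381 in sub-cluster 3. Its cells were shallow, with a median of 1414 UMIs in set 1 against 2603 for all members, and the part of depth in its grouping was not tested. Sub-cluster 6 (24 cells, 0 in set 1) was led by Retnla, Crip1, Mrc1, Ccl6 and Ccl9, with a mean Retnla value of 2.40 against -0.05 to 0.01 in the others. The value of 0 for Retnla in set 1 therefore does not hold for members of every set. Its mean of the C1q macrophage markers, 0.526, was also the highest, against 0.219 to 0.277. So were its means of the hepatoma markers (0.567, against 0.435 to 0.479), the type 2 dendritic-cell markers (0.271, against 0.056 to 0.181) and the mature dendritic-cell markers (0.253, against 0.089 to 0.161). Its mean of the rule gene Ms4a6c was the lowest, at 0.517 against 1.96 to 2.49.

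Sub-cluster 5 (116 cells) belonged almost wholly to 1 set, with 97.4% of its cells in set 6, where it made up 44.7% of the members. It was led by Il1b, H2-Eb1, Il1rn, H2-Aa and Cd74. Within set 6 its mean Il1b value was 3.66, against 2.37 in the other members, and its mean H2-Aa value 2.53 against 1.43. Values of sub-cluster 1 within set 6 were close for H2-Aa (2.51) and Cd74 (3.23 against 3.19), lower for Il1b (2.84) and higher for Cxcl9 (1.94 against 1.03). Since almost all of it lies in 1 set, a state of these cells and a property of that set cannot be told apart.

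The make-up of the members differed between the sets. Sub-cluster 1 was 28.0%, 21.2%, 44.5%, 36.7%, 34.6% and 7.91% of the members of sets 1 to 6, and sub-cluster 2 was 27.0%, 16.8%, 21.8%, 33.1%, 13.1% and 15.4%. Sub-cluster 3, with the highest Ly6c2 mean, was 18.0%, 38.7%, 14.5%, 15.4%, 34.6% and 14.2%. Sets 2 and 5 thus had the highest share of sub-cluster 3 and set 4 the highest share of sub-cluster 2. In set 4, where members were most frequent, sub-clusters 1 and 2 held 114 and 103 of the 311 members. Sub-cluster 4 ran from 12.9% to 25% of the members of a set.

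**Figure D5:**
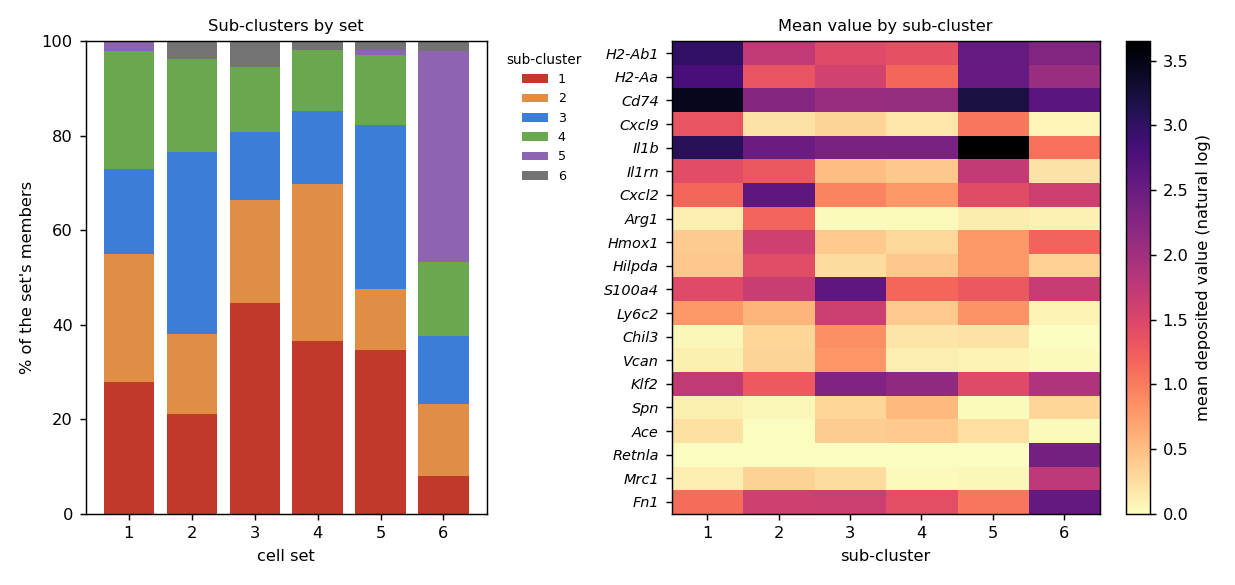
Left, the 6 sub-clusters as a percentage of the members of each set. Right, mean deposited value (natural log scale, colour) of 20 genes in each sub-cluster. Sub-cluster 5 makes up 44.7% of set 6 and at most 2% of any other set, and Retnla marks sub-cluster 6.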

How the data were processed

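RNA of dissociated Hepa1-6 tumour cells was captured in DNBelab C4 droplets and sequenced. Per the labels' protocols and the submitters' processing notes, STAR 2.7.2b served as aligner, PISA as UMI counter and barcodeRanks of DropletUtils to pick cells. The notes name GRCh38 and mm10, and the symbols are those of mouse genes, so no coordinates are given. The deposited values are on a natural log scale, and how the authors pooled the sets and changed sets 2 to 6 is not given in the sources used here. All 53528 columns of cells match no sample.

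From set 1 UMIs were recovered: 100% of its nonzero values gave whole numbers within 0.01, and the 2000 genes held 15.0% of the UMIs. In sets 2 to 6 a total was recovered in 12.5% to 29.5% of cells. Doublets were called in set 1 with Scrublet (scanpy 1.11.5, expected rate 6%). It marked 91 cells, 0.971%, and 0 of the 100 members. The caller was not run on the other sets. UMIs were summed per class, and ratios are log2(CPM + 1) with exact conditional Poisson intervals, for genes with at least 20 UMIs. Hepatoma-marker cells, chosen after the data were seen, had a mean of the hepatoma genes of at least 1.5 and monocyte, C1q and T-cell means below 0.5. Thinning drew 1000 UMIs per cell, and 0 cells of the 3 classes were shallower. Members of all sets were clustered on genes outside the rule with Leiden (leidenalg 0.10.2). The scripts were tested on simulated data.

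Named genes were those of the rule, the markers and the lists, the 15 highest and 15 lowest ratios with the same sign in each set, the 10 highest against all other cells, the 5 leading genes of each sub-cluster and the 5 with the widest range over the sets. Some genes that enter the counts and medians of the lists are not reported here by name. The members and lists were chosen with earlier results of these data known. Alternatives changed the limits, doublets, pseudocount, floor, averaging and thinning, or left out a set.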

Additional observations from a re-analysis of the deposited data

Results flagged for a closer look

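Of 56 values taken over the 6 sets, 4 had a single set far from the other 5, by Dixon's criterion for 6 values. Chance alone gives this in about 1 in 20. The median difference of the MHC class II genes, members minus C1q macrophages, was 0.294 in set 4 and from -0.097 to 0.048 in the other sets. The difference for Ace was lowest in set 4, at 0.113, against 0.256 to 0.305. The difference for Ednrb, a receptor for endothelins, was -0.023 in set 3 and from -0.112 to -0.081 in the others. The difference for Ccr2, a gene of the rule, was highest in set 5, at 1.571, against 1.227 to 1.347.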

How the results depend on the processing

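Of 106 values under alternatives, 64 stayed within the counting interval or 1.5 times, 41 moved and 1 reversed. The share of members, 1.90% of all cells and 20.7% of both classes, was 2.11% and 22.4% with a monocyte limit of 1.0, 1.59% and 17.9% with 1.5, 1.53% and 17.3% with a C1q limit of 0.2, 2.07% and 22.1% with 0.8, 1.64% and 18.3% with a neutrophil limit of 0.5, and 1.13% and 35.1% for cells with a hepatoma mean below 0.5. It was 1.08% and 13.8% in set 1 without doublets and, by a choice made after seeing the data, 1.69% and 18.8% without sub-cluster 5. Leaving out each set gave 1.55% to 2.18% and 18.4% to 22.9%. These follow from the cells each limit admits. The 143 higher and 317 lower genes became 79 and 132 with the hepatoma limit (542 genes tested) and 251 and 551 with no floor. The lower genes were 177 with a pseudocount of 10 CPM, 150 after thinning (599 tested) and 205 with a floor of 50 UMIs (727 tested). The classical monocyte median, 3.12, was 2.17 with the hepatoma limit, 2.51 with a pseudocount of 10 CPM, 2.40 after thinning and 2.36 with a floor of 50 UMIs. The inflammatory median, 1.47, was 1.009 with the hepatoma limit. The lipid median, -0.43, was -0.97 with the hepatoma limit and -0.93 after thinning. The MHC class II median, 0.19, was 0.33 with a monocyte limit of 1.5, 0.007 with a C1q limit of 0.2, 0.00 as a mean over cells and -0.09 after thinning. The cause was not tested. Depth limits set 1, where 100 members hold 320508 UMIs. No paired analysis was possible because cell names hold no replicate number and no set has a known group.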
